A study of Mus musculus with 10 samples.

Results

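Described here are 10 genes listed under immediate early and short-lived transcripts, Ccn1, Jun, Jund, Klf6, Klf10, Bhlhe40, Nfkbia, Dusp6, Gadd45g and Btg2. They are taken out of 22180 genes measured in precipitates of the translational repressor 4E-T from embryonic mouse cortex. Induction and lifetime of the transcripts were not measured. The genes were named in advance with earlier results of the same arrays in view, chiefly the difference between the 4E-T and the control IgG precipitate. For each gene the probe set annotated with its symbol alone and with the highest mean was taken. All 10 were found, 8 with 1 probe set and 2 (Dusp6 and Jund) with 2. In the RefSeq annotation of GRCm38.p6 they are spread over the genome, with only Klf6 (chr13:5861489-5870393) and Gadd45g (chr13:51846675-51848475) sharing a chromosome; Ccn1, with the widest difference, spans chr3:145646971-145649985.

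The RNA was that of freshly dissected cortices from CD1 mice at E12-13, hybridised to Affymetrix Mouse Gene 2.0 ST arrays. The 3 arrays labelled 4ET-IP (replicates 1, 2 and 3) held RNA precipitated with 4E-T, the 3 labelled IgG-IP (replicates 2, 3 and 4) held RNA precipitated with IgG, which serves as the control for unspecific binding, and the 4 labelled input (replicates 1 to 4) held total RNA of the cortices. The labels give no genotype or treatment for the animals, and do not say how many embryos went into a sample, so the errors cover the spread between these samples, which are called biological replicates in the design text. Levels are log2 intensities, and a difference of 1 on this scale is a doubling.

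Immediate early genes are transcribed within minutes of a growth factor, calcium or stress signal, from factors already present in the cell. Their mRNAs are then removed quickly, in many cases through AU-rich elements that recruit deadenylases and decapping enzymes. 4E-T is a partner of eIF4E, the protein that holds the mRNA cap; it keeps bound mRNAs from being translated and gathers with decapping factors in P-bodies. In the embryonic cortex several of the 10 act in the passage from dividing precursor to neuron: Btg2 marks precursors in neurogenic divisions and Gadd45g is switched on downstream of proneural factors.

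Promoters of such genes carry short elements for signal-regulated factors, and 4 are shown because they hold such an element and come from both sides of the contrast between 4E-T and IgG. RefSeq promoter windows (GRCm38.p6) were found for 8 of the 10 genes, all but Klf10 and Bhlhe40, and the 250 bases before the annotated start were searched on both strands. Capitals mark every match to the 8 motifs searched, and each sequence is a stretch of 120 bases read 5′ to 3′ on the strand of the gene.
Jun, chr4:95052223-95052342, minus strand: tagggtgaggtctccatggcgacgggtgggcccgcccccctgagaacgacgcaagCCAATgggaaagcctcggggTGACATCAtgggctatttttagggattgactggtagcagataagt
Klf6, chr13:5861358-5861477, plus strand: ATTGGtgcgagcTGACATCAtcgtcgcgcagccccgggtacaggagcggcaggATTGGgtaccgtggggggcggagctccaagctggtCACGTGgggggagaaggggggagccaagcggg
Btg2, chr1:134079209-134079328, minus strand: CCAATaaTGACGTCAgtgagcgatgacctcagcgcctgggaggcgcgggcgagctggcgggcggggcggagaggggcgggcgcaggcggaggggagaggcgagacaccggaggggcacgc
Nfkbia, chr12:55492648-55492767, minus strand: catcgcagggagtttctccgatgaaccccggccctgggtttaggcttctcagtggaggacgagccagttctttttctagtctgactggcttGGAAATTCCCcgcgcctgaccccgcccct

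The Jun/ATF element TGACATCA stood in the windows of Jun and Klf6, and in 2.93% of all 32851 promoter windows. The palindromic cAMP response element TGACGTCA stood in that of Btg2 and in 1.55% of all windows. The NF-kB site stood in that of Nfkbia, the gene of an NF-kB inhibitor, and in 3.90% of all windows. CACGTG, the E-box bound by clock factors, was found for Klf6 and Gadd45g and in 6.02% of all windows, TATAAA for Ccn1 and Gadd45g and in 12.4%, and CCAAT, whose reverse complement is ATTGG, for Btg2, Dusp6, Gadd45g, Jun and Klf6 and in 33.8%. The AP-1 element TGANTCA and the CArG box were found in none of the 8 windows, and in 6.75% and 1.47% of all windows. No motif overlapped another in the sequences shown. A match is a match of letters, and the arrays measured RNA and not these elements.

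Input 1 and 4ET-IP 1 lay on a lower scale than the other 8 arrays, with medians over all probe sets of 3.54 and 3.52 against 4.33 to 4.54. The fit therefore held a term for this pair beside the group, which takes the offset of a gene as equal on both arrays; where it was not, the values by array show it. Levels of these 2 arrays are given with the others, and results without the term, or without the 2 arrays, are given where they change a call or move a difference by more than the residual SD of the fit. Of 10 cortical marker genes 9 were measured, and their mean log2 level lay between 8.75 and 9.0 on the 4ET-IP arrays, 8.46 and 8.50 on the IgG-IP arrays and 8.01 and 8.56 on the input arrays. RMA sets every array to a common distribution within its run, so a difference is one of relative level and not of RNA recovered, and in input fewer cells with a transcript and less transcript per cell cannot be told apart.

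**Figure D1:**
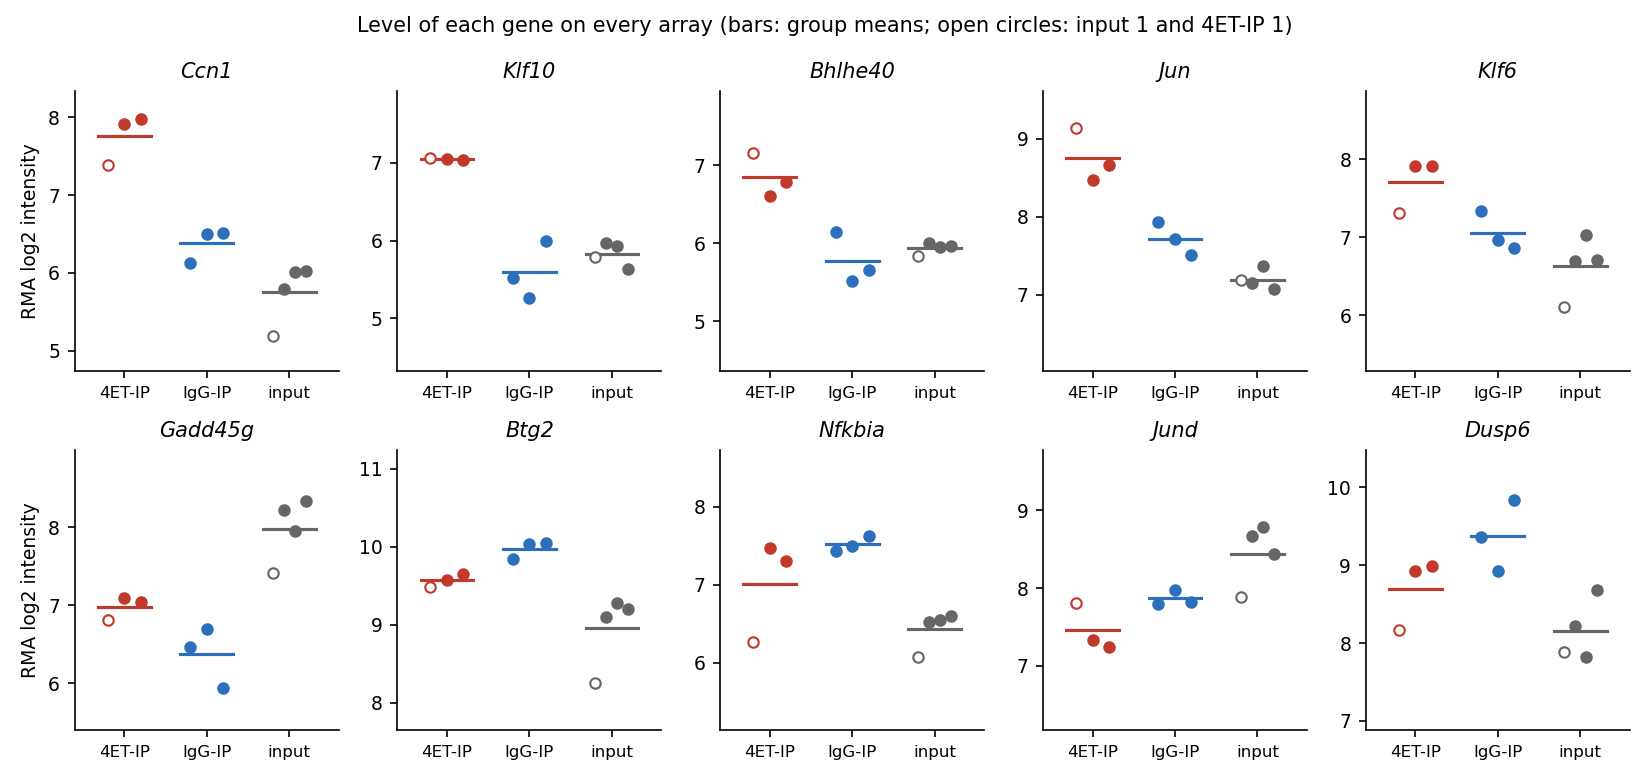
RMA log2 intensity (y axis, the same span in each panel) of the 10 genes on every array, grouped as 4ET-IP, IgG-IP and input on the x axis, with bars at group means and open circles for the lower-scale arrays 4ET-IP 1 and input 1. Ccn1 averaged 7.75 in 4ET-IP, 6.38 in IgG-IP and 5.76 in input, while Gadd45g was highest in input at 7.98.

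The members with the largest excess of the 4E-T over the IgG precipitate were Ccn1, Klf10, Bhlhe40, Jun and Klf6, though the arrays of Klf6 overlapped. Their differences between 4ET-IP and IgG-IP, from 0.87 to 1.59, are values on which the genes were chosen and are given without a test. Ccn1, the gene of a secreted matricellular protein (formerly Cyr61) that binds integrins, had 7.38, 7.91 and 7.97 on 4ET-IP arrays 1, 2 and 3, 6.13, 6.50 and 6.51 on IgG-IP arrays 2, 3 and 4, and 5.19, 5.79, 6.01 and 6.03 on input arrays 1 to 4. The 3 groups did not overlap. The level was 3.01-fold higher with 4E-T than with IgG (1.59 ± 0.16, SE, log2) and 4.13-fold higher than in input (2.05 ± 0.14), and with IgG it was 1.38-fold above input (0.46 ± 0.15). Without the scale term the differences were 1.37 for 4ET-IP over IgG-IP and 0.62 for IgG-IP over input. Within replicate numbers 1, 2 and 3, 4ET-IP exceeded input by 2.18, 2.11 and 1.95.

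Klf10 and Klf6 encode zinc finger transcription factors of the Krüppel-like family, Klf10 being an early target of TGF-beta signalling. Klf10 had 7.06, 7.05 and 7.04 on 4ET-IP arrays, 5.52, 5.26 and 6.0 on IgG-IP arrays, and 5.79, 5.97, 5.93 and 5.64 on input arrays. The 4ET-IP values were nearly equal and lay above every other array, while IgG-IP and input overlapped. The differences were 1.46 ± 0.20 for 4ET-IP over IgG-IP (2.76-fold), 1.22 ± 0.17 for 4ET-IP over input and -0.25 ± 0.18 for IgG-IP over input. Klf6 had 7.31, 7.91 and 7.91 on 4ET-IP arrays, 7.34, 6.97 and 6.86 on IgG-IP arrays, and 6.10, 6.70, 7.03 and 6.71 on input arrays. Here 4ET-IP 1 lay just under IgG-IP 2, so these groups overlapped, and every 4ET-IP array exceeded every input array. The differences were 0.87 ± 0.17, 1.13 ± 0.15 and 0.26 ± 0.15 in the same order, and the first was 0.65 without the scale term.

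Bhlhe40 encodes a basic helix-loop-helix repressor that responds to hypoxia and feeds into the circadian clock. It had 7.16, 6.61 and 6.79 on 4ET-IP arrays, 6.14, 5.51 and 5.65 on IgG-IP arrays, and 5.83, 6.0, 5.95 and 5.96 on input arrays. The 4ET-IP arrays were above all others, and the input values fell within those of IgG-IP. 4ET-IP exceeded IgG-IP by 1.04 ± 0.20 and input by 0.91 ± 0.18, and IgG-IP differed from input by -0.13 ± 0.18.

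Jun and Jund encode subunits of the AP-1 transcription factor and lay on opposite sides. Jun had 9.14, 8.47 and 8.66 on 4ET-IP arrays, 7.93, 7.71 and 7.51 on IgG-IP arrays, and 7.18, 7.15, 7.37 and 7.07 on input arrays. The 3 groups did not overlap, and 4ET-IP exceeded IgG-IP by 0.95 ± 0.18 (1.93-fold) and input by 1.54 ± 0.16 (2.91-fold), with IgG-IP above input by 0.59 ± 0.17. Jund had 7.81, 7.33 and 7.24 on 4ET-IP arrays, 7.80, 7.98 and 7.82 on IgG-IP arrays, and 7.88, 8.67, 8.78 and 8.44 on input arrays. All 4ET-IP arrays lay below all input arrays, but 4ET-IP 1 fell within the IgG-IP values. 4ET-IP minus IgG-IP was -0.36 ± 0.24, and 4ET-IP minus input was -0.97 ± 0.21. Within numbers, 4ET-IP minus input was -0.07, -1.34 and -1.54 for replicates 1, 2 and 3, so the lower-scale pair did not share the difference of the other pairs, and without that pair it was -1.35. The second Jund probe set was dimmer and showed -0.07 for 4ET-IP over IgG-IP and -0.06 for 4ET-IP over input.

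Gadd45g, a stress sensor of the Gadd45 family that restrains proliferation, combined an excess with 4E-T over IgG with a loss from both precipitates. It had 6.81, 7.09 and 7.04 on 4ET-IP arrays, 6.47, 6.70 and 5.94 on IgG-IP arrays, and 7.41, 8.22, 7.96 and 8.34 on input arrays. No groups overlapped, and the order ran from input through 4ET-IP to IgG-IP. 4ET-IP exceeded IgG-IP by 0.79 ± 0.21 (1.73-fold), and both lay under input, by -0.95 ± 0.19 with 4E-T and -1.74 ± 0.20 with IgG.

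Btg2, Nfkbia and Dusp6, with Jund, were the members on the IgG side, by small amounts. Btg2 encodes an antiproliferative adaptor that recruits the CCR4-NOT deadenylase. It had 9.49, 9.57 and 9.65 on 4ET-IP arrays, 9.84, 10.03 and 10.05 on IgG-IP arrays, and 8.25, 9.10, 9.28 and 9.20 on input arrays. The 3 groups did not overlap, with IgG-IP highest. 4ET-IP minus IgG-IP was -0.22 ± 0.18 (-0.40 without the scale term and -0.36 on the 8 arrays), and both precipitates exceeded input, by 0.66 ± 0.16 with 4E-T and 0.87 ± 0.17 with IgG. Input 1 stood apart from the other inputs, whereas 4ET-IP 1 lay close to the other 4ET-IP arrays; without this pair 4ET-IP exceeded input by 0.41.

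Nfkbia encodes the NF-kB inhibitor that NF-kB itself induces and that the proteasome destroys. It had 6.26, 7.47 and 7.31 on 4ET-IP arrays, 7.43, 7.50 and 7.62 on IgG-IP arrays, and 6.07, 6.52, 6.55 and 6.60 on input arrays. Leaving aside 4ET-IP 1, both precipitates lay above all inputs and overlapped each other. 4ET-IP minus IgG-IP was -0.24 ± 0.16, and it was -0.50 without the scale term and -0.13 on the 8 arrays. The differences from input were 0.65 ± 0.15 with 4E-T (0.83 on the 8 arrays) and 0.88 ± 0.15 with IgG (1.08 without the scale term).

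Dusp6 encodes the phosphatase that inactivates ERK and is itself a target of FGF signalling through ERK. Its brighter probe set had 8.17, 8.93 and 8.99 on 4ET-IP arrays, 9.36, 8.93 and 9.83 on IgG-IP arrays, and 7.88, 8.22, 7.82 and 8.68 on input arrays. 4ET-IP overlapped with both other groups, and IgG-IP lay above input. The differences were -0.49 ± 0.26 for 4ET-IP over IgG-IP, 0.60 ± 0.23 for 4ET-IP over input and 1.08 ± 0.24 for IgG-IP over input. The dimmer probe set had 6.96, 7.43 and 7.56 on 4ET-IP arrays, 6.75, 6.99 and 7.07 on IgG-IP arrays, and 6.30, 6.37, 5.84 and 6.47 on input arrays. It gave the opposite sign between the precipitates, 0.45 for 4ET-IP over IgG-IP, and the mean of both probe sets gave -0.02. The place of Dusp6 on the IgG side therefore rests on the choice of probe set, while both probe sets put both precipitates above input.

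**Figure D2:**
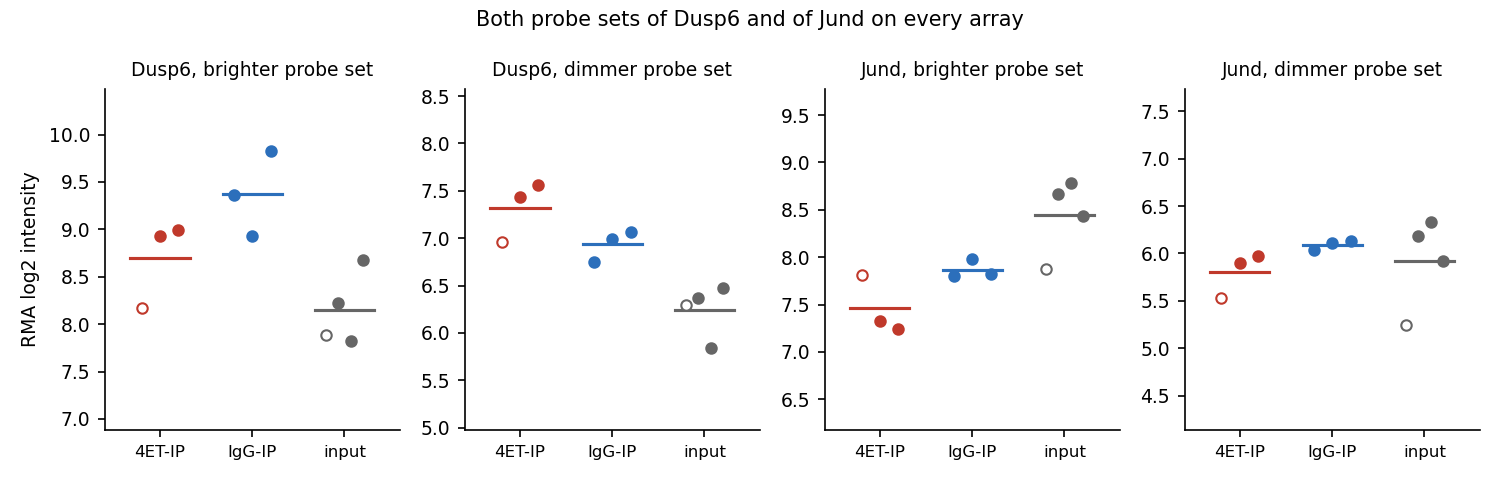
RMA log2 intensity (y axis) of the brighter and the dimmer probe set of Dusp6 and of Jund on each array, grouped as 4ET-IP, IgG-IP and input on the x axis, with bars at group means and open circles for 4ET-IP 1 and input 1. Between 4ET-IP and IgG-IP the means were 8.70 and 9.37 for the brighter Dusp6 probe set, and 7.32 and 6.94 for the dimmer one.

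Counted together, 5 of the 10 genes had 4ET-IP values entirely above IgG-IP (7.02% of all genes) and 1, Btg2, entirely below (14.5%); since the genes were chosen on this contrast nothing is read from these counts. Against input, 4ET-IP was entirely above for 6 genes (6.45% of all genes) and entirely below for Jund and Gadd45g (8.44%), and IgG-IP entirely above for 5 (14.1%) and below for Gadd45g (8.23%). These 2 comparisons share the input arrays with each other and the precipitate arrays with the contrast that chose the genes, so they too are described and not tested.

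**Figure D3:**
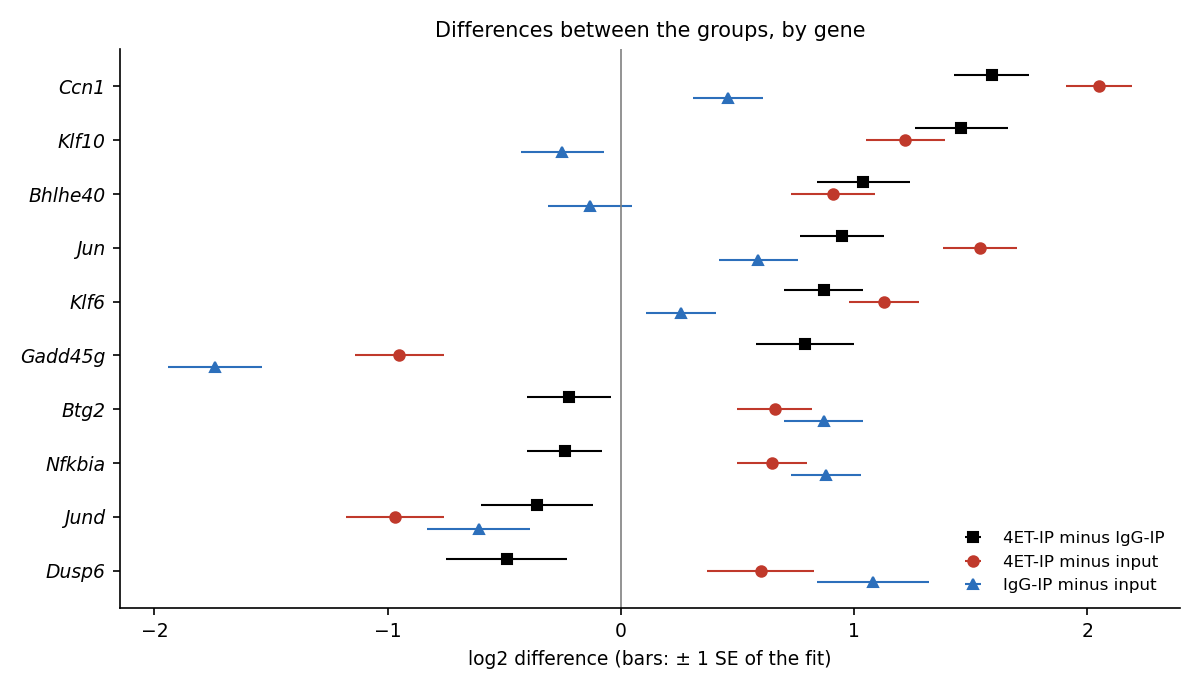
Log2 difference (x axis, bars ± 1 SE of the fit) of 4ET-IP minus IgG-IP (squares), 4ET-IP minus input (circles) and IgG-IP minus input (triangles) for each gene (y axis, ordered by the first). Ccn1, Jun and Klf6 had all 3 differences above 0, Btg2, Nfkbia and Dusp6 lay above input in both precipitates, and Gadd45g and Jund lay below it in both.

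The weighted mean of both precipitates over input was tested, as a contrast apart from the difference on which the genes were chiefly chosen. Earlier results of the same arrays were in view, so levels against input may also have had a part in the choice. The counts and adjusted p-values of this contrast may therefore not be independent of the choice. The weights, 0.526 for 4ET-IP and 0.474 for IgG-IP, make the estimate of the contrast uncorrelated with 4ET-IP minus IgG-IP. Of the 10 genes 7 were higher in this weighted mean and 2 lower (limma, Benjamini-Hochberg adjusted p under 0.05 over all genes), where 8.94% of all genes were higher and 10.7% lower. A gene higher in the mean need not be above input in each precipitate. With IgG alone Klf10, among the 7, was at -0.25 ± 0.18 against input, and Bhlhe40 at -0.13 ± 0.18. All 10 genes lay above the median level. In a fit of such genes alone 8 of the 10 were higher, Bhlhe40 being added (limma adjusted p = 0.0369), and 2 lower, where 20.8% and 23.6% of those genes were.

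Ccn1 was higher by 1.30 ± 0.12 (limma adjusted p = 3.73e-05), Jun by 1.09 ± 0.14 (2.08e-04), Btg2 by 0.76 ± 0.14 (0.00207), Nfkbia by 0.76 ± 0.12 (0.00104), Klf6 by 0.72 ± 0.13 (0.00174), Dusp6 by 0.83 ± 0.20 (0.0110) and Klf10 by 0.53 ± 0.15 (0.0245). Gadd45g was lower (-1.33 ± 0.16, limma adjusted p = 1.65e-04), and so was Jund (-0.80 ± 0.18, 0.00779). Bhlhe40 was at 0.42 ± 0.15 and was not called (limma adjusted p = 0.0730); it was called without IgG-IP 2, 3 or 4 (adjusted p from 0.0202 to 0.0317). With the group alone 3 genes were higher (Ccn1, Jun and Btg2; 2.52% of all genes) and 2 lower (Gadd45g and Jund; 4.84%), and Klf6, Nfkbia, Dusp6 and Klf10 had adjusted p of 0.0620, 0.0542, 0.0542 and 0.158. On the 8 arrays 6 were higher (7.49% of all genes) and 2 lower (9.7%), Klf10 being lost (0.33, adjusted p = 0.261). The call of Klf10 was also lost without 4ET-IP 2 or 3 or input 4 (0.164, 0.159 and 0.0617), that of Dusp6 without input 3 (0.0529), and that of Jund with the mean of its probe sets (-0.41, 0.0730).

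**Figure D4:**
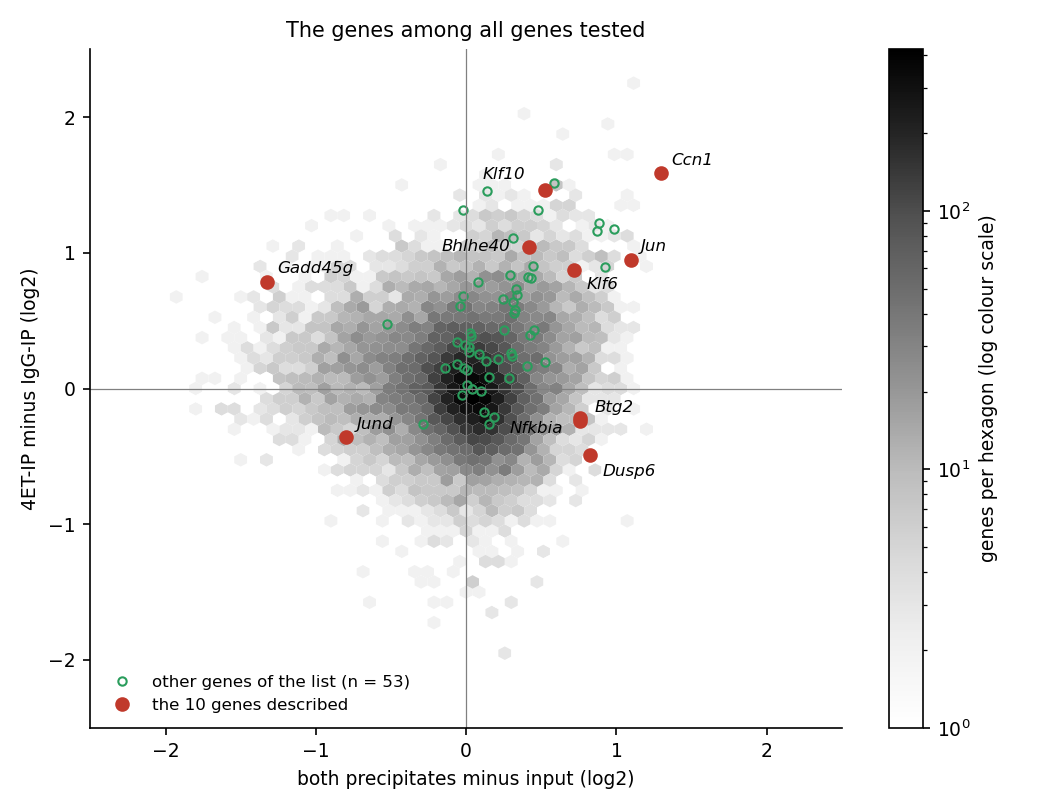
Each gene by its difference between both precipitates and input (x axis, log2) and between 4ET-IP and IgG-IP (y axis, log2), for all genes (grey hexagons, log colour scale), the 53 other immediate early and short-lived genes (open circles) and the 10 genes (filled circles); 22 genes lie beyond the axes. Ccn1 and Jun lie to the upper right, Gadd45g to the upper left, and Btg2, Nfkbia and Dusp6 to the right and below 0.

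The 10 genes belong to a list of 66 immediate early and short-lived transcripts, 63 of them measured. The list was written from general knowledge but with earlier results of these data known. Its counts are therefore described and are not independent support. Of the 53 others 19 were higher with 4E-T than with IgG and 0 lower (limma adjusted p under 0.05), against 7.57% and 2.92% of all genes; at an unadjusted p under 0.05 there were 26 and 0. Their median difference was 0.39, where that of all genes was 0.03, and 46 of 53 lay above 0, against 53.7% of all genes. Of the 9 cortical markers 5 were called higher in the same comparison and 0 lower, with a median difference of 0.61, 4 higher on the 8 arrays and 0 with the group alone; their part in the result was not tested. In the fit of genes above the median level 18 of 36 of the list were higher and 0 lower, against 19.5% and 6.6%. With the group alone 2 were higher (0.708% of all genes) and 0 lower (0.64%), and on the 8 arrays 14 (6.29%) and 0 (2.33%). Without 4ET-IP 2 there were 9 (2.99%) and 0 (1.2%), and without 4ET-IP 3 likewise 9 (3.08%) and 0 (1.13%).

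Errfi1, whose product inhibits the EGF receptor, led the other genes with 4E-T over IgG at 1.52 ± 0.17 (limma adjusted p = 3.39e-04). It had 7.53, 7.80 and 7.81 on 4ET-IP arrays against 6.51, 6.0 and 6.47 on IgG-IP arrays and 6.09 to 6.65 in input. Plk2, a polo-like kinase gene, was higher by 1.46 ± 0.33 (limma adjusted p = 0.0170), a call lost without 4ET-IP 2 or 3 (adjusted p up to 0.0943). Rgs2, a regulator of G-protein signalling, was higher by 1.32 ± 0.21 (limma adjusted p = 0.00275), Nfil3, a bZIP repressor, by 1.31 ± 0.22 (0.00338), and Tob1, which like Btg2 binds the deadenylase, by 1.22 ± 0.17 (0.00110). With the group alone Errfi1 and Rgs2 stayed called (0.0139 and 0.0235), and Plk2, Nfil3 and Tob1 did not (0.0993, 0.242 and 0.190).

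Against input, 22 of the 53 were higher with 4E-T and 0 lower, where 10.4% and 8.86% of all genes were; with the group alone 6 were higher (2.56%) and 0 lower (3.58%), on the 8 arrays 15 (8.88%) and 0 (7.2%), and without 4ET-IP 3 there were 13 higher (6.43%). With IgG 0 of the 53 were higher and 2 lower than in input, where 6.14% and 10.5% of all genes were. At an unadjusted limma p under 0.05 there were 3 and 4, and with the group alone 0 and 0 by limma's adjusted p. The members, some of them above input with IgG, were taken out of this count. With them 5 of the 63 were higher (7.94%) and 3 lower (4.76%), so nothing is read from the 0. The median differences were 0.42 for 4ET-IP over input and -0.02 for IgG-IP over input, where those of all genes were 0.04 and 0.03. In both precipitates over input 8 of the 53 were higher and 0 lower (8.94% and 10.7% of all genes). Without IgG-IP 2, 3 or 4 there were 14, 13 and 14 higher (9.6%, 9.17% and 10.6% of all genes). Fewer were higher on the 8 arrays (6, 7.49%), without 4ET-IP 2 (6, 6.74%), without 4ET-IP 3 (6, 6.8%) and without input 3 (6, 6.45%). Without input 2 or 4 there were 7 (6.42%) and 10 (7.4%). Of the 53, 1 was lower without IgG-IP 4 (10.9%) and 1 without input 3 (8.49%). With the group alone 4 were higher (2.52%), and in the fit of genes above the median level 16 of 36 were (20.8% of those genes).

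Within their families the 10 genes often stood at an end of the range between 4ET-IP and IgG-IP, which follows from how they were chosen. Of 10 AP-1 genes measured, Jun and Jund were the ends, and the nearest of the others were Junb at 0.43 ± 0.19 and Batf at -0.27 ± 0.18, neither called (limma adjusted p = 0.190 and 0.420). Of the 15 Klf genes besides Klf6 and Klf10, Klf16 led at 0.65 ± 0.15 (limma adjusted p = 0.0164, lost without 4ET-IP 2 or 3, up to 0.109, and 0.624 with the group alone) and Klf8 was lowest at -0.43 ± 0.26 (0.358). Of 6 Ccn genes, Ccn2, like Ccn1 a target of YAP, was at 0.34 ± 0.17 and not called (limma adjusted p = 0.260), and Ccn6 was lower at -0.74 ± 0.21 (0.0412, up to 0.195 without 1 array, 0.209 with the group alone and 0.0927 on the 8 arrays).

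The Dusp MAP kinase phosphatase genes, and the ERK feedback and target genes, lay on both sides. Dusp4, a nuclear relative of Dusp6, was higher with 4E-T by 0.90 ± 0.23 (limma adjusted p = 0.0285), a call lost without 4ET-IP 2 or 3 or IgG-IP 4 (up to 0.154). It was also lost with the group alone (0.606) and on the 8 arrays (0.0687), the same fit as without 4ET-IP 1 or without input 1. In all 4 of 10 Dusp genes were called higher and 0 lower, against 7.57% and 2.92% of all genes, with 2 higher on the 8 arrays and 0 with the group alone. Dusp8 was at -0.10 ± 0.21 (limma adjusted p = 0.842). Spry4, an ERK feedback inhibitor, was higher by 1.71 ± 0.22 (limma adjusted p = 8.35e-04, and 0.0644 with the group alone), and 3 of 9 such genes were called higher (7.57% of all genes), with 1 on the 8 arrays and 0 with the group alone. Etv5, a transcription factor downstream of FGF, was lowest at -0.61 ± 0.25 and not called (limma adjusted p = 0.167).

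Among the families of the remaining members, Tob1 was the 1 gene of 5 Btg and Tob genes called higher (7.57% of all genes). Btg4 was lowest outside Btg2 at -0.13 ± 0.16. Gadd45b, the other Gadd45 gene measured, was at 0.47 ± 0.23 (limma adjusted p = 0.243). Its difference from input was -0.30 ± 0.21 with 4E-T, not called and with overlapping arrays (limma adjusted p = 0.399), and -0.78 ± 0.21 with IgG (0.0263). Of 7 genes of NF-kB inhibitors measured, the highest and lowest were Nfkbie at 0.47 ± 0.18 and Nfkbid at -0.88 ± 0.29, neither called (limma adjusted p = 0.127 and 0.0805; Nfkbid was called without IgG-IP 2, 0.00487). Of 9 clock genes Arntl, the partner of Clock, was higher by 0.88 ± 0.17 (limma adjusted p = 0.00665, lost without 4ET-IP 3, 0.0528, and 0.168 with the group alone), and Per3 was lowest at 0.08 ± 0.16.

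**Figure D5:**
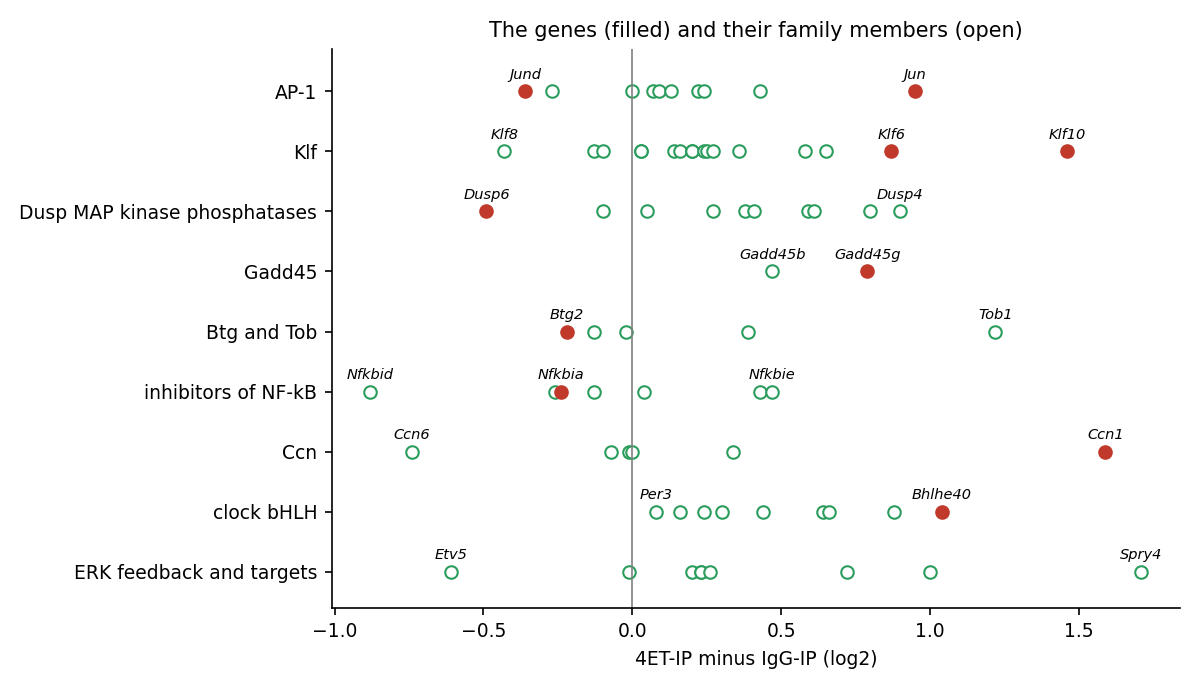
Log2 difference of 4ET-IP minus IgG-IP (x axis) for the genes described (filled) and the other measured genes of their families (open), 1 family a row. Jun and Jund are the ends of the AP-1 row at 0.95 and -0.36, and Dusp6 is the lowest Dusp gene at -0.49.

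Ccn1 is also strongly expressed by vessel and connective tissue cells, so their markers were read beside it. All 8 endothelial markers had a difference between 4ET-IP and IgG-IP above 0, as did 53.7% of all genes. They ran from 0.02 to 1.48 with a median of 0.44, where that of all genes was 0.03. With the group alone Tie1 (-0.05) and Esam (-0.26) lay below 0. Kdr, a VEGF receptor gene, was the 1 of 8 called higher (1.48 ± 0.22, limma adjusted p = 0.00168, and 0.0305 with the group alone), where 7.57% of all genes were. The summed linear intensity of the 8 ran from 184 to 348 on 4ET-IP arrays, 210 to 214 on IgG-IP arrays and 168 to 296 on input arrays. Of 8 meningeal and mesenchymal markers 4 lay above 0, with a median of 0.04 and a range from -0.75 for Col1a2 to 1.42 for Foxc1. Foxc1 was called higher (1.42 ± 0.15, limma adjusted p = 2.29e-04), but its 4ET-IP and IgG-IP arrays overlapped and the call was lost with the group alone (0.94, adjusted p = 0.414). The sums of these 8 were 93 to 243 on 4ET-IP arrays, 176 to 260 on IgG-IP arrays and 83 to 241 on input arrays. The sums of both marker sets are not corrected for scale, and their lowest 4ET-IP and input values are those of the lower-scale arrays 4ET-IP 1 and input 1. The arrays carry no detection calls, and the part of these cells in the level of Ccn1 was not tested.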

How the data were processed

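RNA of 3 4ET-IP, 3 IgG-IP and 4 input samples was measured on 10 arrays. Per the notes of the submitters on processing, the authors used Expression Console (Affymetrix) and RMA, which in general corrects background, equalises array distributions and summarises probes; the deposited unit is log2 intensity. The versions and annotation build are not given in the sources used here. Of 41345 probe sets 23521 had 1 gene symbol, 1814 several and 16010 no entry; of those with 1, 23328 matched the GRCm38.p6 gene table and 0 symbols changed. The highest-mean probe set per gene was kept, which left 22180 genes; there were no detection calls, and the number of arrays limits precision.

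The lower-scale arrays, input 1 and 4ET-IP 1, were set apart by the widest gap between array medians. Between them 7.52% of probe sets had exactly equal values; no other 2 arrays exceeded 0.138%. limma 3.58.1 in R 4.3.3 (lmFit, eBayes) fitted group and a term for this pair, with Benjamini-Hochberg adjustment over all genes, and was tested on simulated data. The contrast of both precipitates with input had weights solved from the design. Errors are standard errors of the fit unless named SD. Figures used matplotlib 3.10.9 in Python 3.11.15.

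The members, lists, families and the term were chosen with earlier results of these data known. Named were all members, from the list outside them up to 5 called genes at each end in 4ET-IP over IgG-IP (0 were called lower), and the highest and lowest of each family; others named beside counts were chosen after their values were seen. Symbols not measured (3 of the list) were left out. Replicate numbers were checked for pairing: deviations from group means of same-numbered arrays correlated across genes at 0.623, 0.240 and 0.277 for 4ET-IP and input, where the first is the lower-scale pair, and at -0.023, 0.080 and 0.318 for IgG-IP and input; 4ET-IP and IgG-IP share only numbers 2 and 3 (-0.067 and 0.022). Pairs of unlike number among 4ET-IP 2 and 3 and input 2 to 4 gave similar values, from 0.186 to 0.269. With the scale term, numbers 2 and 3 of 4ET-IP and input gave -0.037 and -0.098, and number 4 of IgG-IP and input gave 0.270. The alternatives were group alone, 8 arrays, a replicate block, median centring, genes above the median level, the mean of probe sets and leaving out each array.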

Additional observations from a re-analysis of the deposited data

Results flagged for a closer look

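On input 1 the level of Nfkbia was 6.07, far from the other 3 input arrays at 6.52 to 6.60, and that of Btg2 was 8.25, far from the others at 9.10 to 9.28. The gap to the nearest of the others was 0.850 of the range for Nfkbia and 0.831 for Btg2, beyond Dixon's limit for 4 values, which chance passes for about 1 in 20 groups. Input 1 is one of the 2 lower-scale arrays. The other groups hold 3 arrays and were not tested in this way.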

How the results depend on the processing

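Under all alternatives run, each of the 10 genes kept the sign of each difference as rounded, apart from Bhlhe40 in IgG-IP over input. That difference reached 0.00 in 1 of the fits without 1 array. The dimmer probe sets of Dusp6 and Jund on their own were not among the alternatives, and with them signs did change. For Dusp6 4ET-IP over IgG-IP was 0.45 against -0.49 with the brighter, and for Jund IgG-IP over input was 0.01 against -0.61. Of 640 values 608 stayed on their side of the threshold or, where untested, within 1 residual SD of the fit. Of the others 12 lost and 4 gained a call, and 16 moved further. Part of the 640 was fixed in advance, so the tally is not a measure of robustness. Leaving out 4ET-IP 1, input 1 or both gave the same fit, which was counted each time. In the fit of genes above the median level no difference of the 10 genes could change. Nor could that of a gene with 1 probe set under the mean of probe sets, or 4ET-IP over input without an IgG-IP array. Counts of all genes called changed most with the group alone: 299 against 2326 for 4ET-IP over IgG-IP, 1361 against 4274 for 4ET-IP over input, 1206 against 3688 for IgG-IP over input and 1631 against 4361 for both precipitates over input, and 5 against 25 genes of the whole immediate early list for 4ET-IP over IgG-IP. The share of calls that were higher was 34.2% against 45.5% in both precipitates over input, 26.7% against 36.9% in IgG-IP over input, 41.7% against 54.0% in 4ET-IP over input and 52.5% against 72.1% in 4ET-IP over IgG-IP. The fits without 1 array gave 930 to 2268, 2703 to 4679, 2612 to 3471, 3309 to 4761 and 14 to 26, in the same order, the lowest of the first being without 4ET-IP 2 and of the second without 4ET-IP 2 (2707 without 4ET-IP 3). With the replicate block the counts were 2454, 4510, 4120 and 4743, and 20 of the 53 were higher with 4E-T than with IgG (7.8% of all genes). No call of the 10 genes changed with it. That block holds the lower-scale pair as number 1, so it extends the scale term. Across all genes 4ET-IP minus IgG-IP had a median of -0.19 with the group alone and of 0.03 with the term. The cause of these changes beyond the scale of the 2 arrays was not tested.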
